A study of Mus musculus with 13 samples.

Results

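The intervals described here are the wide NIPBL peaks of wild type mouse thymocytes, defined as those in the authors' NIPBL peak list that extend over more than 1000 bp from start to end. There were 2100 of them among 51994 NIPBL intervals (4.04%), and they held 13.1% of the bases in that list. The members were chosen by measured interval width alone, so their width is given as a description and supports nothing else. The sorted cells were wild type CD4+CD8+ thymocytes, called double-positive because they carry both T cell coreceptors at this intermediate step of maturation, from mice of mixed C57BL\6 and 129 background. Chromatin immunoprecipitation with sequencing (ChIP-seq) was made for the cohesin loader NIPBL, for the Mediator subunit Med1 and for the cohesin subunit Rad21, with 1 library per protein. The sources used here do not give the age or sex of the mice, or whether animals were pooled. NIPBL and Med1 were captured from lysates with 150 mM NaCl. Rad21 was captured from a lysate with 800 mM NaCl, and with antibody of multiple lots. The labels name a common ChIP input for NIPBL and Med1 and a separate input for Rad21. They give the number of cells for NIPBL and Med1, but not for Rad21. The salt, the antibody and the input therefore differ along with the protein, and the number of cells may differ too. Their parts in any difference between the lists, or in any likeness of NIPBL and Med1, cannot be told apart. The labels list 13 samples in all, among them 4 RNA-seq libraries, 2 ChIP inputs and 4 Hi-C libraries. The inputs and the Hi-C libraries were not analysed here.

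Cohesin is a ring-shaped complex that holds DNA segments together, and it shapes loops between regulatory elements as well as joining sister chromatids. NIPBL, together with its partner Mau2, loads cohesin onto chromatin and stimulates its movement along DNA. Mediator bridges transcription factors at enhancers with RNA polymerase at promoters, and in embryonic stem cells it was found together with NIPBL and cohesin at active genes. Wide stretches of Mediator and cofactor signal are known from groups of enhancers near genes that define a cell type. No annotation of the genome build of the peak lists (mm9) was used here, so the wide intervals are given by position and are not assigned to genes, promoters or enhancers.

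RNA from wild type cells of the same sorted population contained the markers of the double-positive stage and the RNA of the components studied by ChIP-seq. The 2 wild type RNA-seq libraries held 6633506 and 6500819 counts, and levels are given as CPM, the counts scaled to a common library total. The coreceptor genes Cd4 (1605 and 1271 CPM in replicates 1 and 2) and Cd8a (2465 and 2247 CPM) were abundant, as was the recombinase gene Rag1 (6837 and 6261 CPM). The loader gene Nipbl stood at 870 and 885 CPM, its partner Mau2 at 252 and 249 CPM, Med1 at 334 and 296 CPM and Rad21 at 299 and 259 CPM. All 10 listed T cell and double-positive markers were detected, but Ptcra, the lowest of them, stood at only 9.35 and 8.46 CPM. The markers of other cell types were low when summed over each list: 20.0 and 16.5 CPM over 5 B cell genes, 27.9 and 32.6 CPM over 4 myeloid genes, 3.62 and 3.38 CPM over 4 erythroid genes (1 of them at 0), 19.6 and 19.2 CPM over 5 thymic epithelial genes and 8.89 and 8.46 CPM over 3 NK cell genes. These are separate samples from the ChIP-seq cells, whose own purity was not measured in these files.

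The wide intervals formed a long tail of the NIPBL list. Their median width was 1204 bp (quartiles 1089 and 1406 bp), against 295 bp for the other 49894 NIPBL intervals (quartiles 242 and 428 bp). Most wide intervals exceeded the threshold by little: 1718 (81.8%) were up to 1500 bp, 311 (14.8%) were 1500 to 2000 bp, 61 (2.90%) were 2000 to 3000 bp and 10 (0.476%) were wider than 3000 bp. The threshold cuts a continuous distribution, with 317 intervals in the 50 bp above it and 402 in the 50 bp below it. The narrowest members were 1001 bp wide, on chromosome 2 (chr2:73730351-73731351), chromosome 5 (chr5:73646643-73647643) and chromosome 8 (chr8:20019692-20020692). The intervals just outside were 1000 bp wide, on chromosome 1 (chr1:141318461-141319460), chromosome 2 (chr2:33677006-33678005) and chromosome 10 (chr10:79516107-79517106). Intervals of this size were rarer in the other lists, at 15 of 27207 for Rad21 (0.0551%) and 176 of 15112 for Med1 (1.16%). The median width of a Rad21 interval was 311 bp and of a Med1 interval 349 bp.

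**Figure D1:**
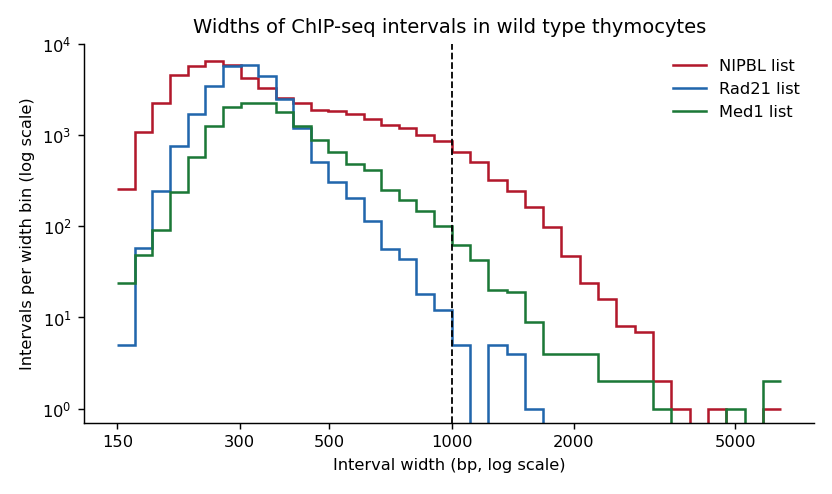
Number of intervals (y axis, log scale) by interval width in bp (x axis, log scale) in the NIPBL, Rad21 and Med1 lists of wild type double-positive thymocytes, with the 1000 bp threshold dashed. The NIPBL list holds 2100 intervals to the right of the line, against 15 in the Rad21 list and 176 in the Med1 list.

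Slightly fewer wide NIPBL intervals met neither a cohesin nor a Mediator interval than met at least 1 of them, and the numbers with each protein were close. Of the 2100, 650 overlapped a Rad21 interval by at least 1 bp (31.0%, 95% exact binomial interval 29.0 to 33.0%) and 646 overlapped a Med1 interval (30.8%, 28.8 to 32.8%). Both were present at 198 (9.43%, 8.21 to 10.8%), Rad21 alone at 452 (21.5%), Med1 alone at 448 (21.3%) and neither at 1002 (47.7%). Among the other NIPBL intervals the shares were 19.3% for Rad21 (9645 intervals), 10.4% for Med1 (5174), 2.25% for both (1125) and 72.6% for neither (36200). With 1 library per protein there is no replicate spread, so none of these differences was tested, and the binomial intervals cover counting error only and treat neighbouring intervals as independent. The sequencing depth of the ChIP-seq libraries is unknown, and a protein without an interval at a site may lie below the threshold of its list.

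Within the wide intervals, the presence of Rad21 told little about that of Med1. Med1 overlapped 30.5% of the 650 members with Rad21 and 30.9% of the 1450 without it. Among the other NIPBL intervals the corresponding shares were 11.7% of 9645 and 10.1% of 40249. Where a wide member held both, the Rad21 and Med1 intervals themselves overlapped in 128 of 198 cases (64.6%) and were apart in 70. The centres of the closest Rad21 and Med1 intervals lay a median of 239 bp from each other (quartiles 102 and 507 bp).

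A wide interval offers more bases to overlap, so the same shares were taken in windows of equal length centred on the midpoints. A 1000 bp window lies wholly inside each wide interval. Around the other NIPBL intervals, of median width 295 bp, it reaches into the flanks. Such windows are thus equal in length but not in NIPBL-bound bases, and the part of this in the differences was not tested. In a 1000 bp window, a length chosen after the data were seen, Rad21 was present at 28.3% of wide intervals (95% exact binomial interval 26.4 to 30.3%), against 23.8% of the other NIPBL intervals (23.4 to 24.2%). Med1 was present at 28.2% of wide intervals (26.3 to 30.2%), against 13.2% of the others (13.0 to 13.5%). The difference for Rad21 thus narrowed to 4.54 percentage points, where whole intervals gave 11.6, while that for Med1 was 15.0 points, where whole intervals gave 20.4. In a 200 bp window on the midpoint the order for Rad21 turned round, with 14.1% of wide intervals and 18.3% of the others. Med1 in that window stood at 12.1% of wide intervals and 9.02% of the others. Both proteins together stood at 1.71% of wide intervals and 1.90% of the others in that window.

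From 200 to 1500 bp of NIPBL width, the share in the equal window of 1000 bp rose more for Med1 than for Rad21. Below 1000 bp, the narrower the class, the more of this window was flank outside the NIPBL interval. Med1 was present in the 1000 bp window of 9.75% of intervals of 200 to 300 bp, 13.5% of those of 300 to 500 bp, 20.1% at 500 to 700 bp, 24.4% at 700 to 1000 bp and 28.1% at 1000 to 1500 bp. The binomial intervals of these 5 classes did not overlap, but they cover counting error only, and differences between classes were not tested. The increase began well below the threshold. It did not extend over the whole range: the share was 11.7% at up to 200 bp, and 29.9%, 24.6% and 30% at 1500 to 2000 bp, 2000 to 3000 bp and above 3000 bp, with intervals that overlapped that of the class of 1000 to 1500 bp. For Rad21 the shares in the 5 classes from 200 to 1500 bp were 22.9%, 23.0%, 25.9%, 24.9% and 27.4%, and the narrowest intervals, of up to 200 bp, had 28.8%. The binomial intervals, again of counting error only, were 22.3 to 23.4% at 200 to 300 bp and 25.3 to 29.6% at 1000 to 1500 bp. At 1500 to 2000 bp, 2000 to 3000 bp and above 3000 bp the Rad21 shares in this window were 32.5%, 26.2% and 70% (7 of 10). Counted over whole intervals, the share with Rad21 was 28.1% at 1000 to 1500 bp, 41.2% at 1500 to 2000 bp, 50.8% at 2000 to 3000 bp (31 of 61) and 90% above 3000 bp (9 of 10). For Med1 these shares were 29.2%, 37.6%, 37.7% and 50% (5 of 10), and a wider interval offers more bases to both proteins. Per kilobase of NIPBL interval, Rad21 intervals numbered 1.19 at up to 200 bp, 0.697 at 200 to 300 bp, 0.515 at 300 to 500 bp, 0.398 at 500 to 700 bp, 0.315 at 700 to 1000 bp and, at their lowest, 0.275 at 1000 to 1500 bp, the class that holds 81.8% of the members. In the 3 wider classes they numbered 0.316, 0.347 and 0.663, where the last rests on 10 members. An overlapping interval counted whole here, however few bases it shared. A narrow NIPBL interval therefore gives a high density by its size, and densities of classes that differ in width are not directly comparable. For Med1 the density was 0.415 at up to 200 bp, between 0.264 and 0.317 in the 4 classes from 200 to 1000 bp, and 0.283, 0.285, 0.234 and 0.193 in the 4 classes of wide members.

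**Figure D2:**
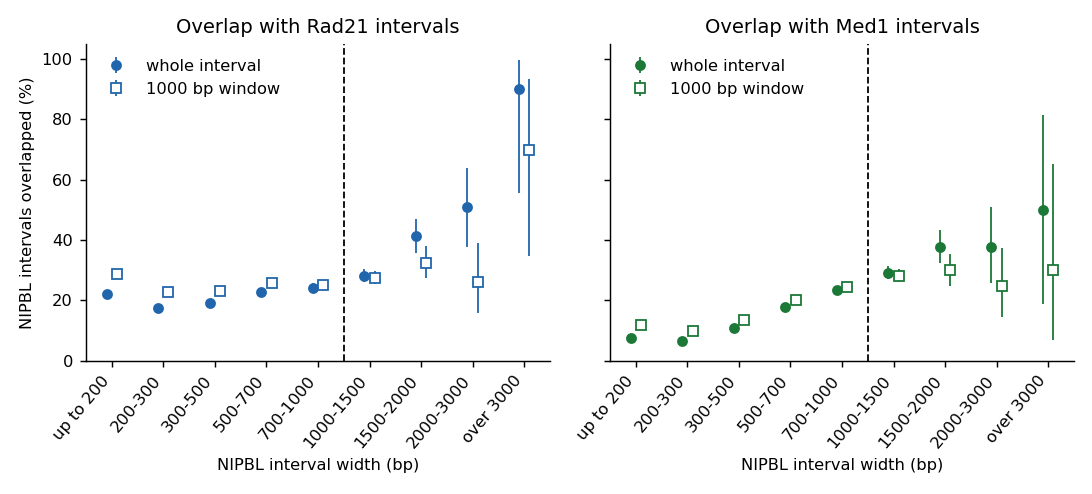
Share of NIPBL intervals (y axis, %) that overlap a Rad21 interval (left) or a Med1 interval (right) by NIPBL width class in bp, for the whole interval (filled circles) and for a 1000 bp window on the midpoint (open squares), with 95% exact binomial intervals as bars and the 1000 bp threshold dashed. In the equal window, which holds more flank in the narrower classes, Med1 climbs, with 9.75% at 200 to 300 bp and 28.1% at 1000 to 1500 bp. Rad21 rises less over these classes, with 22.9% and 27.4%, and stands at 32.5% at 1500 to 2000 bp and 70% above 3000 bp (7 of 10).

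Cohesin intervals were spread evenly over the middle of the wide NIPBL intervals, while Mediator intervals were less frequent at the centre than to its sides. At the exact midpoint, 10.0% of wide intervals were inside a Rad21 interval, against 16.2% of the other NIPBL intervals. Along the wide intervals Rad21 formed a plateau with its highest point, 10.5%, at 300 bp from the midpoint, and dropped to 3.48% at 1000 bp. Among the other NIPBL intervals Rad21 was highest at the midpoint itself and stood at 3.06% at 400 bp. Med1 showed a dip in the middle of the wide intervals: 6.62% at the midpoint and 10.5% at 400 bp on average over both sides. At the other NIPBL intervals Med1 was highest at the midpoint (7.29%), with 3.3% at 400 bp. At 3000 bp from the midpoint, Rad21 covered 1.90% of positions around wide intervals and 1.89% around the others, and Med1 0.786% and 1.20%.

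The highest point of Med1 coverage lay further from the midpoint in the wider classes of NIPBL interval. A wider interval reaches further out, so some such growth follows from how the classes were made. For Med1 the highest point was at 200 bp in intervals of over 700 and up to 1000 bp, which are not members (10.5%, with 9.11% at the midpoint). It was at 300 bp in members up to 1500 bp (11.1%, with 6.52% at the midpoint) and at 600 bp in members wider than 1500 bp (14.9%, with 7.07% at the midpoint). For Rad21 the distances in these 3 classes were 150, 350 and 600 bp, but these points rose little above the midpoint. They stood at 12.2%, 10.2% and 13.9%, against 11.6%, 9.55% and 12.04% at the midpoint. Each is the highest single position on either side. In members wider than 1500 bp the other side was highest at 700 bp, with 13.1%. Whether the Rad21 distances differ between the classes was not tested. Of the 796 overlaps between wide members and Rad21 intervals, 584 Rad21 intervals (73.4%) lay entirely inside the member. Their centres were inside the member but nearer to an edge than to its midpoint in 410 cases (51.5%), nearer to the midpoint in 343 (43.1%) and outside the member in 43 (5.40%). Of the 764 overlaps with Med1 intervals, 464 (60.7%) were entirely inside, and the centre was nearer to an edge in 420 (55.0%), nearer to the midpoint in 267 (34.9%) and outside in 77 (10.1%). In the intervals of over 700 and up to 1000 bp the centre was nearer to the midpoint in 54.4% of 989 overlaps for Rad21 and 38.8% of 960 for Med1.

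**Figure D3:**
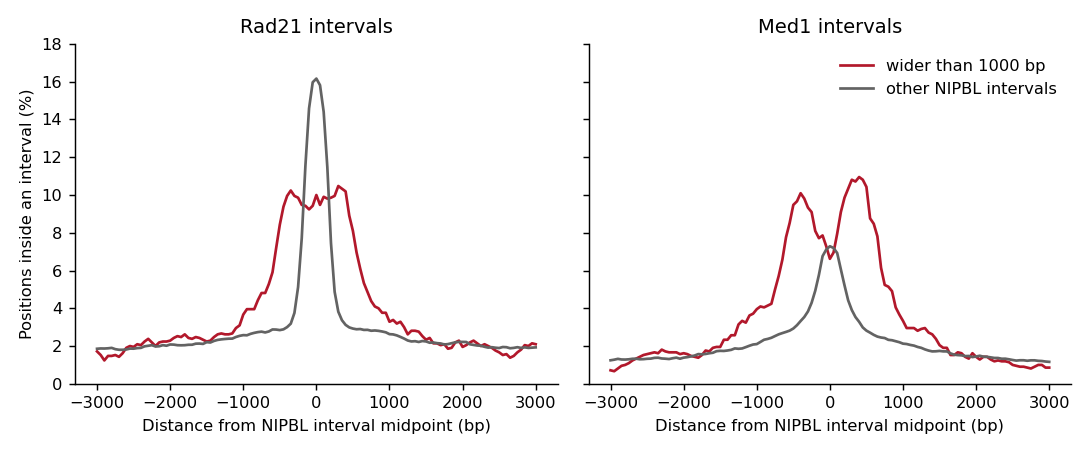
Share of positions covered by a Rad21 interval (left) or a Med1 interval (right), in % (y axis), by distance in bp from the midpoint of the NIPBL interval (x axis), for the 2100 wide intervals (red) and the 49894 others (grey). Around wide intervals Rad21 forms a plateau near 10.0% and Med1 has shoulders on both sides of a dip of 6.62%, whereas around the others both curves have a single summit at the midpoint (16.2% for Rad21, 7.29% for Med1).

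A small part of the wide intervals held several cohesin or Mediator intervals. At least 2 Rad21 intervals lay in 124 members, 5.90% of all members and 19.1% of the 650 with Rad21, against 139 other NIPBL intervals, 0.279% of all of them and 1.44% of the 9645 with Rad21. At least 2 Med1 intervals lay in 113 members, 5.38% of all and 17.5% of the 646 with Med1, against 190 other NIPBL intervals, 0.381% of all and 3.67% of the 5174 with Med1. A wider interval has more room for several. Over all bases of the wide intervals, Rad21 intervals covered 10.0%, against 13.6% in the other NIPBL intervals, and Med1 intervals covered 9.59%, against 7.51%. The wide NIPBL intervals in turn met a small part of the other lists, 794 of 27207 Rad21 intervals (2.92%) and 763 of 15112 Med1 intervals (5.05%). The Rad21 intervals that met a wide member had a median width of 331 bp, against 310 bp for Rad21 intervals that did not, and the Med1 intervals that met one had a median width of 335 bp, against 350 bp.

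Wide NIPBL intervals were seldom wide in the other lists. Of the 176 Med1 intervals wider than 1000 bp, 11 (6.25%) met a wide NIPBL interval and 81 (46.0%) met any NIPBL interval. All 15 Rad21 intervals wider than 1000 bp met a NIPBL interval, and 9 of them a wide one. Seen from the wide NIPBL intervals, 8 met such a Rad21 interval, 12 met such a Med1 interval and 1 met both. That member was the widest of all, on chromosome 17 (chr17:39979831-39985886, mm9), 6056 bp wide. The Med1 list has an interval of 6057 bp with the same start at this place, which is also the widest of that list, and the Rad21 list has 5 intervals there that cover 73.3% of the member. Most of these Rad21 intervals lie nearly end to end, between positions 39982032 and 39985873, so their number need not be that of separate sites. The nearest other NIPBL interval was 1085406 bp away. Whether the 3 libraries carry an unusual read density at this place was not tested, since the lists hold no signal values. Without this member, 8 of the 9 remaining members wider than 3000 bp had Rad21, at 0.630 Rad21 intervals per kilobase, and 7 of the 13 remaining Rad21 intervals wider than 1000 bp met a wide NIPBL interval.

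The other 9 of the 10 widest members were between 3080 and 4533 bp. Of all 10, Rad21 was present in 9 and Med1 in 5, each of which also held Rad21. The widest after the one on chromosome 17 was chr1:88420978-88425510 (4533 bp), with 1 Rad21 interval over 4.65% of its length and no Med1 interval. On chromosome 10, chr10:13684238-13687811 (3574 bp) held 2 Rad21 intervals over 29.9% of its length and 2 Med1 intervals over 13.9%. On chromosome 5, chr5:137041121-137044424 (3304 bp) held 3 Rad21 intervals over 47.0% of its length and 2 Med1 intervals over 19%, while chr5:22938231-22941462 (3232 bp) held 1 Rad21 interval over 7.36% and no Med1 interval. These members thus range from nearly free of cohesin intervals to largely interspersed with them.

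A further 5 of the widest members lay on chromosomes 7, 11 and 17. The member chr7:71081920-71085033 (3114 bp) held 3 Rad21 intervals over 53.4% of its length and 1 Med1 interval over 9.63%. On chromosome 11, chr11:3189238-3192353 (3116 bp) held 3 Rad21 intervals and 1 Med1 interval, chr11:102177912-102181013 (3102 bp) held neither, and chr11:52086559-52089645 (3087 bp) held 2 Rad21 intervals and no Med1 interval. On chromosome 17, chr17:51969970-51973049 (3080 bp) held 4 Rad21 intervals over 48.9% of its length and no Med1 interval. Next to the widest member, the members with the most Rad21 intervals were this one and chr16:10784004-10786720 (2717 bp), also with 4, which cover 65.6% of it. The member on chromosome 16 also held 2 Med1 intervals.

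Members with the most Med1 intervals were of moderate width. The rule fixed 5 of them, each with 3 Med1 intervals, and they were 1135 to 1667 bp wide. Of these, 3 were on chromosome 17, at chr17:74927003-74928669, chr17:71351006-71352183 and chr17:35973598-35974732, with Med1 over 61.1%, 64.0% and 74.4% of their length and no Rad21 interval. The one on chromosome 2, chr2:152614484-152616035, had Med1 over 59.1% and no Rad21 interval. The one on chromosome 3, chr3:95462275-95463840, had Med1 over 50.7% and 1 Rad21 interval over 15.1%. Of all 646 members with Med1, 448 had no Rad21 interval, so a lack of Rad21 is not particular to these 5.

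By chromosome, the share of NIPBL intervals that were wide ranged from 2.97% (chromosome 16) to 4.53% (chromosome 17) over the 19 autosomes. It was 2.86% on chromosome X (21 of 734, 95% exact binomial interval 1.78 to 4.34%). On chromosome Y it was 0 of 88, with an exact binomial upper bound of 4.11% (3.41% by the limit of 3 counts). The share of wide members with Rad21 ranged from 19% (chromosome X) to 38.6% (chromosome 8). The share with Med1 was 49.6% on chromosome 1 (63 of 127) and 56.7% on chromosome 17 (72 of 127), and from 21.4% to 36.0% on the other 18 chromosomes with members.

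The Med1 list itself was uneven between chromosomes. Chromosomes 1 and 17 together held 21.5% of all Med1 intervals, against 11.9% of NIPBL and 11.4% of Rad21 intervals, and the part of this excess in the Med1 shares was examined by leaving both out. Without them, Med1 was present at 27.7% of 1846 wide members and at 9.49% of 43960 other NIPBL intervals, and Rad21 at 30.6% and 19.3%. The dip of Med1 in the middle of wide members was also present without these chromosomes, at 5.58% at the midpoint and 8.94% at 400 bp.

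**Figure D4:**
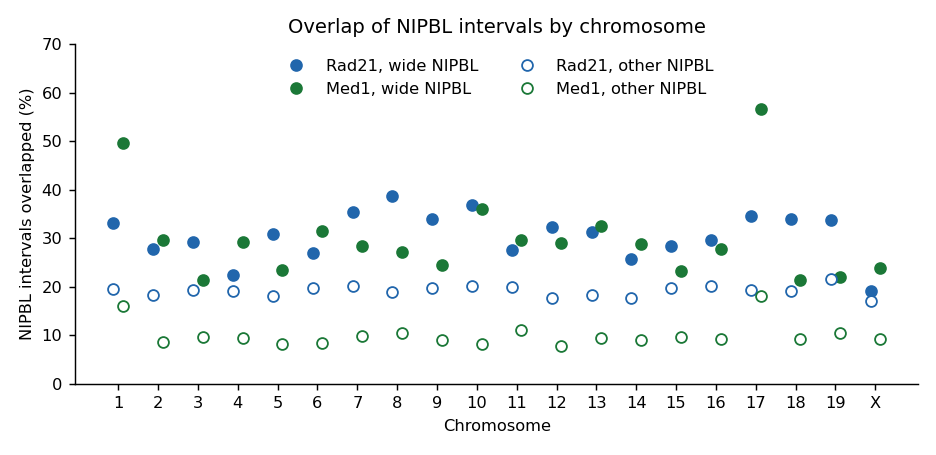
Share of NIPBL intervals (y axis, %) overlapping a Rad21 interval (blue) or a Med1 interval (green) on each chromosome (x axis), for wide intervals (filled) and other NIPBL intervals (open). Chromosome Y has no wide member and is not shown. Med1 reaches 49.6% on chromosome 1 and 56.7% on chromosome 17 and lies between 21.4% and 36.0% elsewhere, while on each chromosome shown both proteins are more frequent at wide members than at the others.

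Wide intervals often had another NIPBL interval close by. The gap to the nearest one had a median of 586 bp (quartiles 116 and 11124 bp), against 933 bp for the other NIPBL intervals (quartiles 180 and 7085 bp), and it was at most 500 bp for 1008 members (48.0%), against 20532 others (41.2%). Within 10 kb on either side, the mean number of further NIPBL intervals was 3.42 around wide members and 3.6 around the others, and that of Rad21 intervals 0.959 and 1.06. Within 50 kb these means were 10.9 and 11.7 for NIPBL and 3.90 and 4.21 for Rad21. Members without a Rad21 interval had the nearest one at a median of 10424 bp, against 7752 bp for other NIPBL intervals without one. For Med1 these medians were 29035 bp and 26520 bp. The mean number of Med1 intervals was 0.550 and 0.609 within 10 kb, and 1.99 and 2.20 within 50 kb. At 10 and 50 kb the surroundings of wide intervals thus held slightly fewer intervals of all 3 lists than those of the others. Within 2 kb, 59.4% of wide intervals and 58.5% of the others had a further NIPBL interval.

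A minority of members were grouped. With gaps of up to 12.5 kb bridged, 268 members (12.8%) fell into 120 clusters of at least 2, of which 102 were pairs, 13 held 3 members and 5 held 4 or more. The clusters had a median span of 7802 bp. Rad21 was present within 93 of the 120 clusters (77.5%) and Med1 within 65 (54.2%), spans that include the bases between members. A longer span meets more intervals by its length, and no spans of like length were set beside these. Taken member by member, Rad21 overlapped 44.4% of the 268 clustered members and 29.0% of the 1832 single ones, while Med1 overlapped 30.6% and 30.8%. Their median widths were 1230 bp and 1199 bp.

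The largest cluster was on chromosome 11 (chr11:52066923-52098450, mm9). It held 9 wide members of 1313 to 3087 bp in 31.5 kb, which together filled 53.3% of the span, and a further 16 narrower NIPBL intervals. Rad21 had 4 intervals there and Med1 had none. Among the clusters with 4 wide members, that at chr17:34323915-34349419 (25.5 kb) held 4 Rad21 and 2 Med1 intervals, and that at chr6:124829297-124851522 (22.2 kb) held 3 Rad21 intervals and no Med1 interval. A second one on chromosome 6 (chr6:41491368-41505227, 13.9 kb) held 1 interval of each protein. The most compact was chr11:87567319-87574279 (6.96 kb), where 4 wide members filled 85.0% of the span beside 6 Rad21 and 3 Med1 intervals. The 5 clusters thus held from 1 to 6 Rad21 and from 0 to 3 Med1 intervals, and wide members filled from 19% to 85.0% of their spans.

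**Figure D5:**
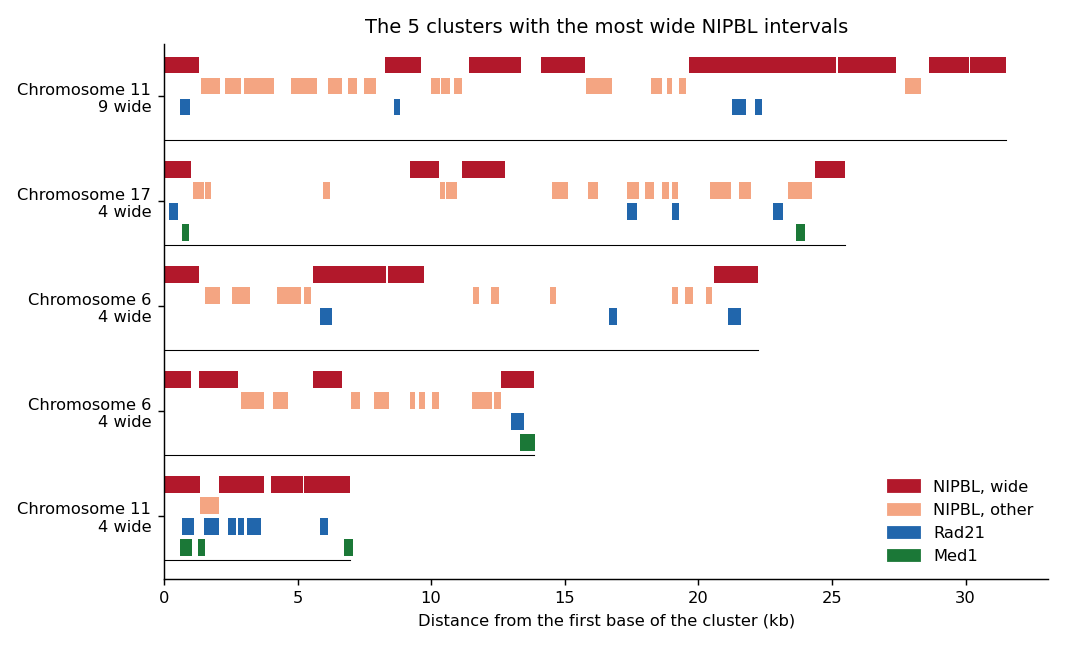
Positions of wide NIPBL, other NIPBL, Rad21 and Med1 intervals in the 5 clusters with the most wide members, by distance in kb from the first base of each cluster (x axis). The uppermost cluster, on chromosome 11, holds 9 wide members over 31.5 kb with 4 Rad21 intervals and no Med1 interval, and the lowest holds 4 wide members over 6.96 kb with 6 Rad21 and 3 Med1 intervals.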

How the data were processed

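The authors deposited 1 peak list per ChIP-seq library as chromosome, start and end (unit: other, a position in bases), with no score, height or p-value. Names of the deposited files point to filtered reads, removed duplicates and the peak caller SWEMBL with the number 3.3. Per the submitters' processing notes, positions are on build mm9. The aligner, the use of the inputs and the ChIP-seq depth were not given in the sources used here. The deposited RNA-seq table holds estimated counts per Ensembl gene, of which the wild type libraries were used, scaled here to CPM by their totals. No column of per-sample values had to be left out as unmapped (0 columns).

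Width was taken as end minus start, and positions are printed from base 1. Overlap meant at least 1 bp. Overlap, distance and joining routines were tested on simulated intervals. Python 3.11.15, pandas 2.3.3, NumPy 2.4.6 and SciPy 1.17.1 were used. With 1 library per protein no test was made, and 95% intervals are exact binomial. Coverage around midpoints was read every 50 bp up to 3000 bp. The regions named are the 10 widest members, the 3 on each side of the threshold, the 5 with the most Rad21 and the 5 with the most Med1 intervals, and the 5 clusters with the most members. The members and lists were chosen with earlier results of these data known. The planned link of intervals to genes, and with it the knockout comparison of the RNA, was not made, since the gene tables at hand are of build GRCm38.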

Additional observations from a re-analysis of the deposited data

How the results depend on the processing

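The share of wide members with Rad21 was 44.0% at widths over 1500 bp, 56.3% over 2000 bp, 36.8% with gaps of up to 500 bp joined, and 14.1%, 28.3% and 34.0% in midpoint windows of 200, 1000 and 2000 bp. With Med1 the corresponding values were 38.0%, 39.4%, 27.9%, 12.1%, 28.2% and 34.7%, and 27.7% without chromosomes 1 and 17. With both proteins they were 15.4%, 18.3%, 1.71%, 7.67% and 10.8%, leaving out the joined setting, which stayed within the binomial interval, as did an overlap of 100 bp and the exclusion of chromosomes X and Y for all 3 shares. Joining gives 6159 intervals over 1000 bp in place of 2100, of which 5067 are made of several. The difference between wide and other NIPBL intervals changed sign in the 200 bp window for Rad21 (-4.15 percentage points) and for both proteins (-0.18), and kept its sign in every other setting run and, for Med1, in all. Windows of 1000 and 2000 bp and the exclusion of chromosomes were chosen after the data were seen. The number of clusters was 66 with gaps of up to 5000 bp and 170 with gaps of up to 25000 bp. No paired analysis was possible because the results come from single libraries with no test. The alternatives for gene starts and for the knockout RNA were not run. The lists carry no signal, so weak binding below their thresholds cannot be seen.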
